A study of Mus musculus with 4 samples.

Results

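The transcripts described here encode the factors that lay out the body plan of the embryo: the homeobox genes of the Hoxb, Hoxc and Hoxd clusters and of the Lhx, Nkx, Dlx, Otx and sine oculis (Six2 to Six6) families, the Pax genes, the T-box genes and the zinc finger genes Gata4, Gata5 and Gata6. They were chosen by gene symbol alone. A probe set, the group of probes that reads one transcript on an Affymetrix array, was included where the platform's annotation gives it a single symbol of one of these families. This gave 140 of 34945 probe sets with 1 symbol, from 84 of 18193 genes. They cover 80 of the 89 protein-coding genes in RefSeq whose symbols belong to these families, together with 4 opposite-strand RNAs (Hoxb5os, Hoxd3os1, Lhx1os and Pax6os1) that share the same stem in their names. Another 3 probe sets name several genes of the Hoxb and Hoxd clusters and were left out.

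The RNA came from mouse leukemic cells carrying the fusion MLL-AF9, isolated from the marrow of C57BL/6 recipients. Wild-type cells were on 2 arrays and Ezh2 KO cells on 2 arrays. The labels of the knockout samples conflict: the genotype entry names Ezh2, and another entry says that the recipients were repopulated with marrow lacking Ink4a and Arf. Ezh2 KO is used here as the group's name, after the genotype entry. How the fusion gene was introduced, how Ezh2 was deleted and the age of the mice are not given in the sources used here, nor is it said whether the 2 arrays of a group represent separate animals. The p-values therefore reflect only the spread between these samples, and that spread may be technical.

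Ezh2 is the methyltransferase of Polycomb repressive complex 2, which places methyl groups on lysine 27 of histone H3. Promoters of developmental transcription factors are the textbook targets of this mark, and in blood cells most of these genes are held silent. Some members have known uses in blood: Hoxb3 and Hoxb4 in stem and progenitor cells, Pax5 in B cells and Tbx21 in T and natural killer cells. MLL fusions are best known for sustaining the Hoxa cluster, which lies outside the set described here.

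The single probe set of Ezh2 was at 5216 and 5315 intensity units in the wild type and at 4989 and 4991 in the knockout, a log2 difference of -0.08 (SE 0.06, limma adjusted p = 0.532). Whether its probes lie inside the deleted stretch is unknown, so it checks neither the deletion nor the labels. Of 15 listed genes of immature and leukemic myeloid cells 14 were measured, and all 14 had a probe set with a mean above 100. In the lists for other cell types that count was 2 of 9 B cell genes, 1 of 10 T and natural killer cell genes, 3 of 9 erythroid and megakaryocyte genes, 1 of 11 stromal and endothelial genes and 2 of 10 macrophage genes.

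The promoter sequence of Six4 is shown because Six4 was the only gene of the set with a limma adjusted p under 0.05 in the main fit. That of Pax8 is shown because Pax8 was the other bright gene. Each line gives the 250 bases before the RefSeq start that lies farthest upstream, 5′ to 3′ on the gene's strand in GRCm38.p6, with CG dinucleotides in capitals. Six4 lies at chr12:73113426-73113675 (minus strand) and Pax8 at chr2:24475600-24475849 (minus strand).
Six4: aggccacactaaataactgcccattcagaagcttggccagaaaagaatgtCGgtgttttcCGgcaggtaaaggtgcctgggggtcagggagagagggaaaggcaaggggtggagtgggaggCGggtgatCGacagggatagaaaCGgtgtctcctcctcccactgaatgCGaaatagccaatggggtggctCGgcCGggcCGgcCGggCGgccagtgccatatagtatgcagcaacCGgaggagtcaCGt
Pax8: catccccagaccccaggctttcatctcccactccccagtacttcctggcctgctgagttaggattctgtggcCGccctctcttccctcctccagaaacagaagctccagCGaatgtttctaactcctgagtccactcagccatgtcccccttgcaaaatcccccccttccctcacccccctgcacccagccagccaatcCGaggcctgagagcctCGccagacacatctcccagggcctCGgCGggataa
The Six4 stretch holds 13 CG dinucleotides, an observed over expected ratio of 0.642 at a GC content of 58.8%. The Pax8 stretch holds 6, a ratio of 0.314 at 60.4%. Stretches with a ratio of at least 0.6 and a GC content of at least 50% are called CG-rich here. RefSeq windows were at hand for 54 of the 84 genes. Of their 67 windows 49.3% were CG-rich, with a median of 13 CG dinucleotides. Over all 32851 windows of the same length 31.0% were CG-rich, with a median of 6. The share was 47.6% of 63 windows among genes without a probe set above 100, and 3 of 4 windows were CG-rich among Six4, Pax8 and Hoxb4, which have one.

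Most of the set gave little signal. With an intensity of 100 as the limit, the mean exceeded it for 9 of 140 probe sets in the wild type (6.43%) and for 9 of 140 in the Ezh2 KO cells (6.43%). They were the same 9 probe sets in both groups, from the 6 genes Six4, Pax8, Hoxb3, Hoxb4, Hoxb13 and Nkx2-6, and 0 probe sets crossed the limit in one group only. Among all probe sets with 1 symbol the mean exceeded 100 for 48.0% in wild-type and 48.8% in knockout cells. In a list of other developmental factors outside these families, 3 of 132 probe sets were above 100 in each group (2.27%). Foxl2, an ovarian factor, was at a mean of 149 and 155.5 in the wild type and knockout, and Tlx2, a factor of enteric neurons, at 138 and 156. Of the 49 tested probe sets of that list limma called 0 (3 had an unadjusted p under 0.05), with a median log2 difference of 0.05.

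**Figure D1:**
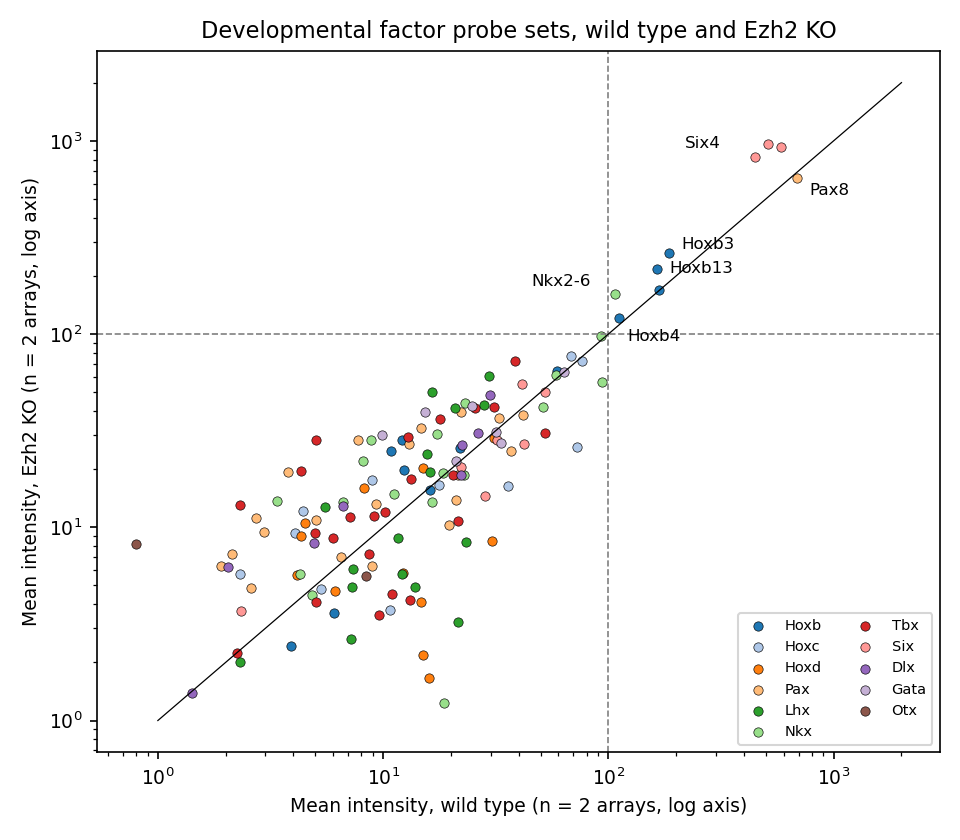
Mean intensity of each of the 140 probe sets for wild type (horizontal) and Ezh2 KO (vertical), 2 arrays a group, both axes logarithmic. Colours give the family, dashed lines an intensity of 100 and the solid line equality. The 9 probe sets beyond both dashed lines belong to 6 genes, and no point lies beyond one line alone.

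With the limit at 50, it was exceeded by 20 wild-type means and 21 knockout means, and at 200 the counts were 4 and 6. The members closest above the limit of 100 in the wild type were Nkx2-6 at 107, a Hoxb4 probe set at 111 and Hoxb13 at 164. Closest below it were Nkx2-4 at 93.8, Nkx2-3 at 92.4 and a Hoxc6 probe set at 76.0. In the knockout the closest above were Hoxb4 probe sets at 121 and 169 and Nkx2-6 at 161. The closest below were Nkx2-3 at 97.1, Hoxc6 at 76.9 and Tbx19 at 72.9.

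A total of 129 probe sets, with all the probe sets of 76 genes among them, did not reach 100 on any array. Their signals cannot be told from background, since no detection calls were used here. The median of the 140 probe sets was 13.7 and 11.4 on the wild-type arrays and 18.2 and 14.2 on the knockout arrays. Wild-type replicate 2 was the dimmest array at this end of the scale for all genes as well: 29.8% of all probe sets with 1 symbol lay under an intensity of 21.93 there, against 25.2% to 26.7% on the other arrays. The part of this in the members' differences was not tested on its own. With quantile normalization, which gives every array the same distribution, the counts above 100 were 9 and 9 as before.

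**Figure D2:**
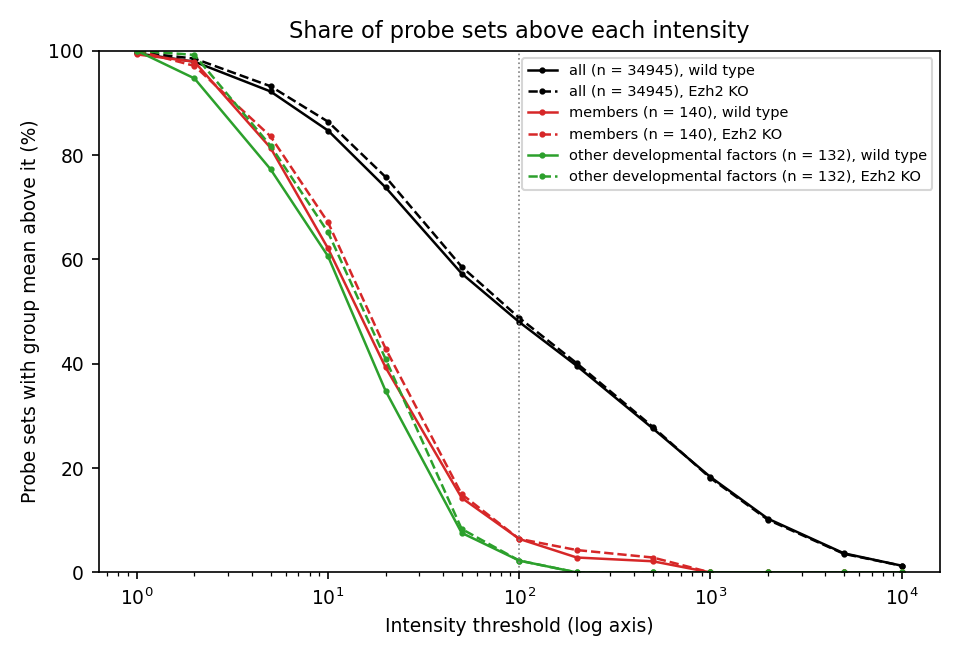
Share of probe sets whose group mean lies above each intensity, on a logarithmic intensity axis, for all probe sets with 1 symbol, the 140 developmental factor probe sets and 132 probe sets of other developmental factors. Solid lines are the wild type and dashed lines the Ezh2 KO. At 100, marked by the dotted line, the shares were 48.0% and 48.8% for all probe sets and 6.43% in both groups for the developmental factors.

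For the comparison of the groups, limma was fitted on log2(intensity + 16) over 25580 probe sets whose mean over the 4 arrays exceeded 21.93, the 30th percentile. Differences are knockout minus wild type. Each fold is a ratio after 16 was added to the intensities, and for dim probe sets it is an underestimate. The filter kept 48 of the 140 developmental factor probe sets (34.3%, 35 genes) and left 92 untested, while it kept 73.2% of all. A dim probe set could pass through its brighter group alone, so counts over the 48 do not describe the whole set. At an adjusted p under 0.05, 3 of the 48 rose in the knockout (6.25%) and 0 fell in the limma fit, where 1 lower member had an unadjusted p under 0.05. Among all probe sets tested 7.98% were called, 4.08% higher and 3.91% lower. Six4 alone accounted for the 3 calls. With each array centred on its median the calls over all probe sets were 505 higher and 1088 lower, in place of 1043 and 999, and the same 3 members were called.

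Six4 encodes a homeodomain factor of the sine oculis family, a group that acts with Eya and Dach proteins in muscle, kidney and sensory organ development. The probe set 1439753_x_at was at 463 and 560 in the wild type and at 936 and 999 in the knockout. The lower knockout array lay well above the higher wild-type array, and the log2 difference was 0.90 (SE 0.12, 1.87-fold, limma adjusted p = 0.00165).

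The probe set 1425767_a_at of Six4 read 525 and 374 in the wild type and 896 and 763 in the knockout. These groups did not overlap either, with a log2 difference of 0.88 (SE 0.16, 1.84-fold, limma adjusted p = 0.00952). The third, 1456862_at, was nearly equal on the wild-type arrays, at 587 and 584, and at 798 and 1060 in the knockout. Its log2 difference was 0.64 (SE 0.13, 1.56-fold, limma adjusted p = 0.0187). The 95% intervals of the 3 differences were 0.64 to 1.16, 0.52 to 1.23 and 0.34 to 0.94, so that they overlapped one another. In bulk RNA of this kind, more cells with a transcript and more of it per cell cannot be told apart.

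These 3 readings of Six4 are not independent, since they come from the same RNA and 1439753_x_at and 1456862_at were designed on the same sequence record. The ending _x_at marks probes that other transcripts may share. A further Six4 probe set, 1427701_a_at, was designed on another record and was dim, at 49.9 and 32.5 in the wild type and 53.9 and 56.0 in the knockout. Its log2 difference of 0.33 (SE 0.35, limma adjusted p = 0.669) did not pass, and its 95% interval ran from -0.47 to 1.12.

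The calls of 1439753_x_at and 1425767_a_at held whichever array was left out, with log2 differences of 0.77 to 1.04 and 0.64 to 1.11. That of 1456862_at was lost without wild-type replicate 1 (0.64, limma adjusted p = 0.0725), wild-type replicate 2 (0.63, adjusted p = 0.0546) or knockout replicate 2 (0.44, adjusted p = 0.0594). With a single prior variance in place of one that follows intensity, limma called 0 probe sets of any gene (4206 had an unadjusted p under 0.05), and the 3 probe sets had adjusted p = 0.146, 0.223 and 0.247.

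Among markers of other cells, Vcam1, an adhesion receptor of the macrophage list, fell on all 3 of its probe sets, on the brightest from 4817 and 5769 to 1440 and 1578 (log2 difference -1.80, limma adjusted p = 9.24e-06). With Vcam1 in it, the summed level of the 10 genes of that list, each by its brightest probe set, was 6479 and 7492 in the wild type and 2931 and 3250 in the knockout. Adgre1 was the other gene above 100, at a mean of 1594 and 1454 (limma adjusted p = 0.463), and 6 of the 10, C1qa and C1qc among them, were under the filter. The part of other cells in the values of Six4, Gata6 and the cofactors was not tested.

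**Figure D3:**
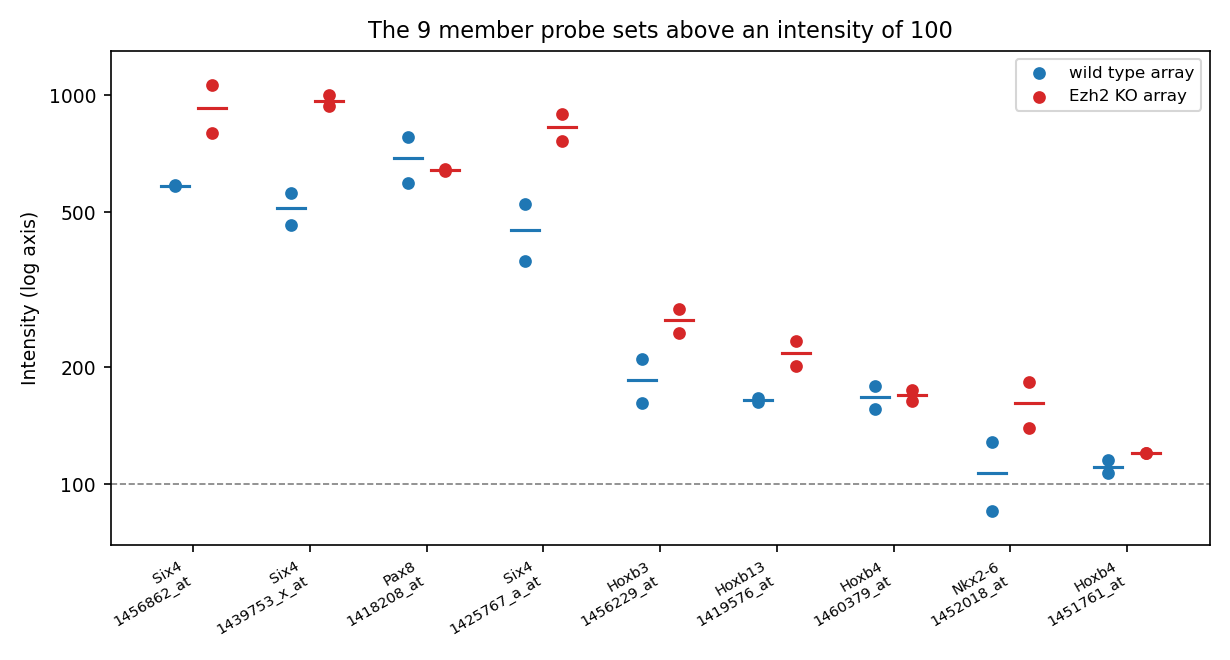
Intensity on each array (logarithmic axis) of the 9 developmental factor probe sets with a group mean above 100, the dashed line. Points are arrays, 2 a group, and bars are group means. The knockout points lie above the wild-type points for the Six4 probe sets, Hoxb3, Hoxb13, Nkx2-6 and Hoxb4 1451761_at, of which limma called the 3 of Six4, and within the wild-type range for Pax8 and Hoxb4 1460379_at.

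Beside Six4, the neighbouring genes on chromosome 12 were read after its values had been seen. On one side Six6, a factor of eye and pituitary development, was at 29.7 and 14.7 in the wild type and 21.5 and 19.4 in the knockout. On the other side Mnat1, a subunit of the kinase complex of transcription factor TFIIH, was at a mean of 873 and 1008 (log2 difference 0.20, limma adjusted p = 0.211). Trmt5, a tRNA methyltransferase, was at 429 and 365 (-0.23, limma adjusted p = 0.385). The brighter probe set of Slc38a6, a transporter of the amino acid carrier family, was at 749 and 823 (0.13, limma adjusted p = 0.466). Farther out on the side of Six6, Ppm1a had a higher knockout mean on every probe set, with log2 differences of 0.15 to 0.70. None passed, the lowest limma adjusted p being 0.0729, and on the dimmest one the groups overlapped. A gene between Ppm1a and Six6 was under the filter, with overlapping groups. Beyond Slc38a6, Tmem30b was at 2.64 and 7.64 in the wild type and 28.2 and 22.0 in the knockout, and was also under the filter. Among these neighbours Six4 alone passed the threshold, and the difference between it and them was not tested.

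The rest of the sine oculis family was dim. Six2, a regulator of kidney progenitors, was at 42.2 and 62.6 in the wild type and 55.0 and 45.4 in the knockout, with overlapping groups. The 3 probe sets of Six3, a factor of the forebrain and eye, ranged from 1.07 to 55.1 over all arrays, and the 1 probe set of Six5, which neighbours the myotonic dystrophy kinase gene, from 7.09 to 48.0.

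Several cofactors of these proteins rose. Of a list of partners of sine oculis, Pax and Lhx proteins, with Eya, Dach and Ssbp genes among them, 6 of 21 tested probe sets rose and 0 fell, with a median log2 difference of 0.32, where 4.08% of all probe sets rose and their median was 0.03. This list was chosen with earlier results of these data known, so its share is a description only. The 6 calls came from Ssbp2, Dach1, Ssbp3 and Eya1 alone. Lmo1 (mean 444 to 349, -0.33, limma adjusted p = 0.149) and Ssbp4 (475 to 358, -0.41, limma adjusted p = 0.157) were lower without overlap. Neither passed, though each had an unadjusted p under 0.05. Ssbp2 is a binding partner of Ldb1. On its brightest probe set it was at 205 and 183 in the wild type and 734 and 691 in the knockout. That was a 3.48-fold rise (log2 difference 1.80, limma adjusted p = 5.69e-05). A further Ssbp2 probe set, at 124 and 109 against 407 and 377, rose 3.09-fold. The remaining 2 Ssbp2 probe sets were dim, with wild-type arrays at 4.97 to 15.3 and knockout arrays at 36.3 to 70.1, and did not pass. Dach1, a corepressor that works with Eya and sine oculis factors, was at 877 and 987 in the wild type and 1796 and 2634 in the knockout, a 2.32-fold rise (limma adjusted p = 0.00153).

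A dimmer Dach1 probe set rose from a mean of 319 to 539 (1.67-fold, limma adjusted p = 0.0272). It lost its call without wild-type replicate 1 (adjusted p = 0.128) or knockout replicate 1 (adjusted p = 0.0555), and with median centring (adjusted p = 0.0528). The other calls of the list, named after their values were seen, were Ssbp3 and Eya1. Eya1, the phosphatase and coactivator that works with Six4 and its relatives, was at 2063 and 2101 in the wild type and 2580 and 2608 in the knockout (log2 difference 0.32, limma adjusted p = 0.0244). Its brightest probe set, at 5058 and 4320 against 5527 and 5841, did not pass (0.28, limma adjusted p = 0.0724). The Eya1 call was lost without wild-type replicate 1 (0.30, adjusted p = 0.109), wild-type replicate 2 (0.33, adjusted p = 0.0688) or knockout replicate 2 (0.31, adjusted p = 0.0599). With median centring Eya1 had 0.22 (adjusted p = 0.297).

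Ssbp3, a close relative of Ssbp2, went from a mean of 319 to 496 on its brighter probe set (log2 difference 0.62, limma adjusted p = 0.0192). That probe set was not called with median centring (0.52, limma adjusted p = 0.0715), without wild-type replicate 1 (0.53) or without knockout replicate 2 (0.56). The other Ssbp3 probe set was at 94.2 and 132 against 131 and 126, with overlapping groups (0.18, limma adjusted p = 0.736).

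Of the Hoxb, Hoxc and Hoxd clusters, Hoxb held every probe set above 100, 4 of its 12, from Hoxb3, Hoxb4 and Hoxb13. Hoxb3, known from blood progenitors and the hindbrain, was at 162 and 210 in the wild type and 282 and 245 in the knockout on probe set 1456229_at. Its groups did not overlap, yet the log2 difference of 0.48 (SE 0.18, limma adjusted p = 0.157) did not pass. The second Hoxb3 probe set was at 73.0 and 45.0 against 73.1 and 56.1, with overlapping groups.

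Hoxb4, which expands blood stem cells when overexpressed, gave 179 and 156 in the wild type and 174 and 164 in the knockout on the probe set 1460379_at. Those groups overlapped, at a log2 difference of 0.02 with a 95% interval of -0.40 to 0.44. The second, 1451761_at, was at 107 and 115 against 121 and 121, with a difference of 0.11 and an interval of -0.39 to 0.60. Hoxb13, a factor of the tail and prostate at the far end of the cluster, was at 166 and 162 against 234 and 202. Its log2 difference of 0.37 (SE 0.18, limma adjusted p = 0.260) did not pass.

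**Figure D4:**
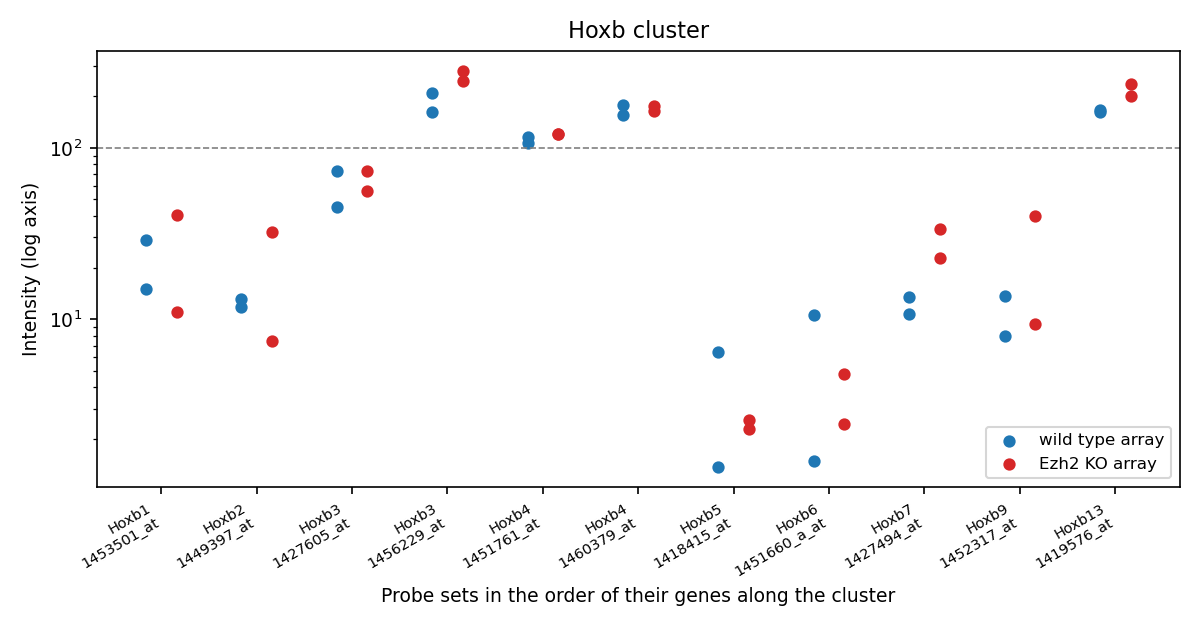
Intensity on each array (logarithmic axis) of the probe sets of the Hoxb genes in the order of the genes along the cluster, from Hoxb1 to Hoxb13. Blue points are wild-type arrays, red points Ezh2 KO arrays and the dashed line an intensity of 100. One probe set of Hoxb3, both of Hoxb4 and that of Hoxb13 lie above the line, and the genes from Hoxb5 to Hoxb9 between them lie under it in both groups.

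Along the cluster the signal was not continuous. Hoxb5, Hoxb6, Hoxb7 and Hoxb9, which lie between Hoxb4 and Hoxb13, had means of 3.91, 6.06, 12.1 and 10.8 in the wild type and 2.43, 3.61, 28.2 and 24.7 in the knockout. On the other side of Hoxb3, Hoxb2 was at 7.50 to 32.2 over the 4 arrays and Hoxb1 at 11.0 to 40.6. None of these 6 genes had an array above 100, and Hoxb8 was not analysed on its own.

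The Hoxc cluster, which patterns the trunk and hindlimb, had 0 of 11 probe sets above 100, with means over all arrays of 4.01 to 74.3. Hoxc6 was its brightest gene, and its 3 probe sets gave different readings. The probe set 1427361_at was at 99.8 and 52.3 in the wild type and 76.4 and 68.6 in the knockout. The probe set 1427454_at was at 77.0 and 68.7 against 34.0 and 17.7. Its groups did not overlap, and the log2 difference of -1.11 (SE 0.37, limma adjusted p = 0.111) did not pass. The Hoxd cluster, which patterns limbs and the genital region, was dimmer still, at 4.90 to 30.1 over 12 probe sets with 1 tested, Hoxd3 (log2 difference 0.03).

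The Hoxa cluster stood apart in level, with 9 of 16 probe sets of the 9 measured genes above 100 in each group. Hoxa9, the main Hox target of MLL fusions, was at a mean of 14242 in wild-type cells and 15996 in knockout cells on its brightest probe set (log2 difference 0.17, limma adjusted p = 0.149). Of 15 tested Hoxa probe sets 1 rose and 0 fell, where 4.08% of all probe sets tested rose and 3.91% fell. Hoxa5 rose from 2858 to 3598 (0.33, limma adjusted p = 0.0461). The Hoxa5 call was lost without wild-type replicate 1 (adjusted p = 0.195), wild-type replicate 2 (adjusted p = 0.0653) or knockout replicate 1 (adjusted p = 0.201), and with median centring (adjusted p = 0.297). The largest difference of the list was in the other direction: Hoxa11 was at 104 and 75.9 in the wild type and 33.9 and 11.0 in the knockout, without overlap (-1.52, limma adjusted p = 0.0540), and did not pass.

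Of the homeodomain cofactors of Hox proteins, 4 of 17 tested probe sets rose and 0 fell (median log2 difference 0.20). Among all probe sets tested 4.08% rose and 3.91% fell, and this list too was chosen with earlier results known. Pbx2 accounted for 3 of the 4 calls in the list. It was at 928 and 869 in the wild type and 1995 and 2140 in the knockout on its brightest probe set, a 2.28-fold rise (limma adjusted p = 5.14e-05). The other Pbx2 probe sets rose 2.28-fold and 3.57-fold, and no array of the knockout overlapped with the wild type on any of the 3. The remaining call was a Meis1 probe set, from 1341 to 1665 (0.31, limma adjusted p = 0.0397), which was lost whichever array was left out (adjusted p = 0.0730 to 0.134) and with median centring (adjusted p = 0.326). A second Meis1 probe set was at 1623 and 1612.

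Among the Pax genes, Pax8 stood out. Pax8 drives thyroid and kidney development, and its probe set 1418208_at was at 782 and 594 in the wild type and 647 and 638 in the knockout. The knockout arrays lay within the wild-type range, with a log2 difference of -0.08 (SE 0.13, limma adjusted p = 0.784) and a 95% interval of -0.38 to 0.22. The second Pax8 probe set was at 4.14 to 27.7 on all arrays, so the signal of Pax8 rests on 1 probe set. The other 20 Pax probe sets had means of 3.72 to 39.9.

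Pax5, the factor that commits cells to the B lineage, had a probe set at 6.05 and 1.48 against 32.5 and 6.07, and a second that ranged from 13.6 in the wild type to 57.3 in the knockout with overlapping groups. On the first, the lower knockout array and the higher wild-type array were nearly equal. Pax6, of the eye and brain, had 5 probe sets between 1.05 and 47.5, and the 4 further Pax genes of muscle, spine and tooth, Pax1, Pax3, Pax7 and Pax9, did not exceed 76.2 on any array. The defining B cell genes Cd79a and Ebf1 were also under the filter intensity, while Cd79b was at a mean of 751 and 804.

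In the Nkx family, whose members specify heart, thyroid, gut and ventral brain, Nkx2-6 alone had a mean above 100. This pharyngeal and heart factor was at 128 and 85.5 in the wild type and 140 and 183 in the knockout. The groups did not overlap, but the log2 difference of 0.54 (SE 0.25, limma adjusted p = 0.247) did not pass. Its second probe set was at 10.5 and 35.5 against 14.4 and 73.4. Nkx2-3, needed for the spleen and gut vessels, was at 122 and 62.7 against 103 and 91.0, and Nkx2-4, a relative of the thyroid factor, at 116 and 71.1 against 37.3 and 75.1. Each crossed 100 on 1 array or more without a group mean above it. Nkx2-1, the thyroid and lung factor, was at 3.36 to 6.50.

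The LIM homeobox genes had 0 of 16 probe sets above 100. Of the 4 that passed the filter limma called 0, and 1 had an unadjusted p under 0.05. Lhx4, a pituitary and motor neuron factor, was at 26.7 and 32.2 in the wild type and 61.9 and 59.1 in the knockout (log2 difference 0.75, SE 0.36, limma adjusted p = 0.259). Lhx9, a factor of the gonad and brain, was at 12.9 and 20.2 against 56.8 and 43.6 (1.03, SE 0.43, limma adjusted p = 0.195). That probe set and the one of Lhx6 that was tested passed the filter only through their knockout arrays. The other 3 Lhx9 probe sets and the second Lhx4 probe set were under the filter, with means of 4.91 to 19.9 for Lhx9 and single arrays at 4.42 to 7.42 for Lhx4. On that Lhx4 probe set and on 2 of the 3 of Lhx9 both knockout arrays were below both wild-type arrays. Lhx6, of forebrain interneurons and tooth, differed in direction between its probe sets, at 21.6 and 20.1 against 28.4 and 54.1 on the one tested and at 26.7 and 16.4 against 3.51 and 2.97 on the other. Lhx2, which immortalises blood progenitors when overexpressed, was at 1.05 to 3.26.

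The T-box genes had 0 of 23 probe sets above 100. Tbx19, the factor of pituitary corticotroph cells, was the brightest in the knockout, at 43.4 and 33.3 in the wild type and 63.0 and 82.8 in the knockout (log2 difference 0.71, SE 0.34, limma adjusted p = 0.260). Its second probe set was at 15.4 and 2.03 against 7.02 and 7.49. Tbx5, of the heart and forelimb, had a lower knockout mean on its brighter probe set, at 69.9 and 34.4 against 10.5 and 50.9, with overlapping groups. Tbx21, the factor of type 1 helper T cells and natural killer cells, was at 3.55 to 17.2.

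Gata4, Gata5 and Gata6, the heart and gut members of the Gata family, had 0 of 7 probe sets above 100. Gata4 was at 88.0 and 38.5 in the wild type and 68.7 and 57.9 in the knockout. Gata6, which also directs peritoneal macrophages, was at 9.60 and 21.1 against 51.2 and 27.4 on one probe set, a log2 difference of 0.81 (SE 0.49, limma adjusted p = 0.385). That probe set passed the filter only through its knockout arrays. A second was at 13.8 and 5.87 against 37.4 and 23.0 and was not tested, and on the third the groups overlapped. The Dlx genes of the jaw and forebrain had 0 of 8 probe sets above 100 (means 1.40 to 39.0), and Otx1 and Otx2, of the forebrain, were at 0.402 to 15.0.

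**Figure D5:**
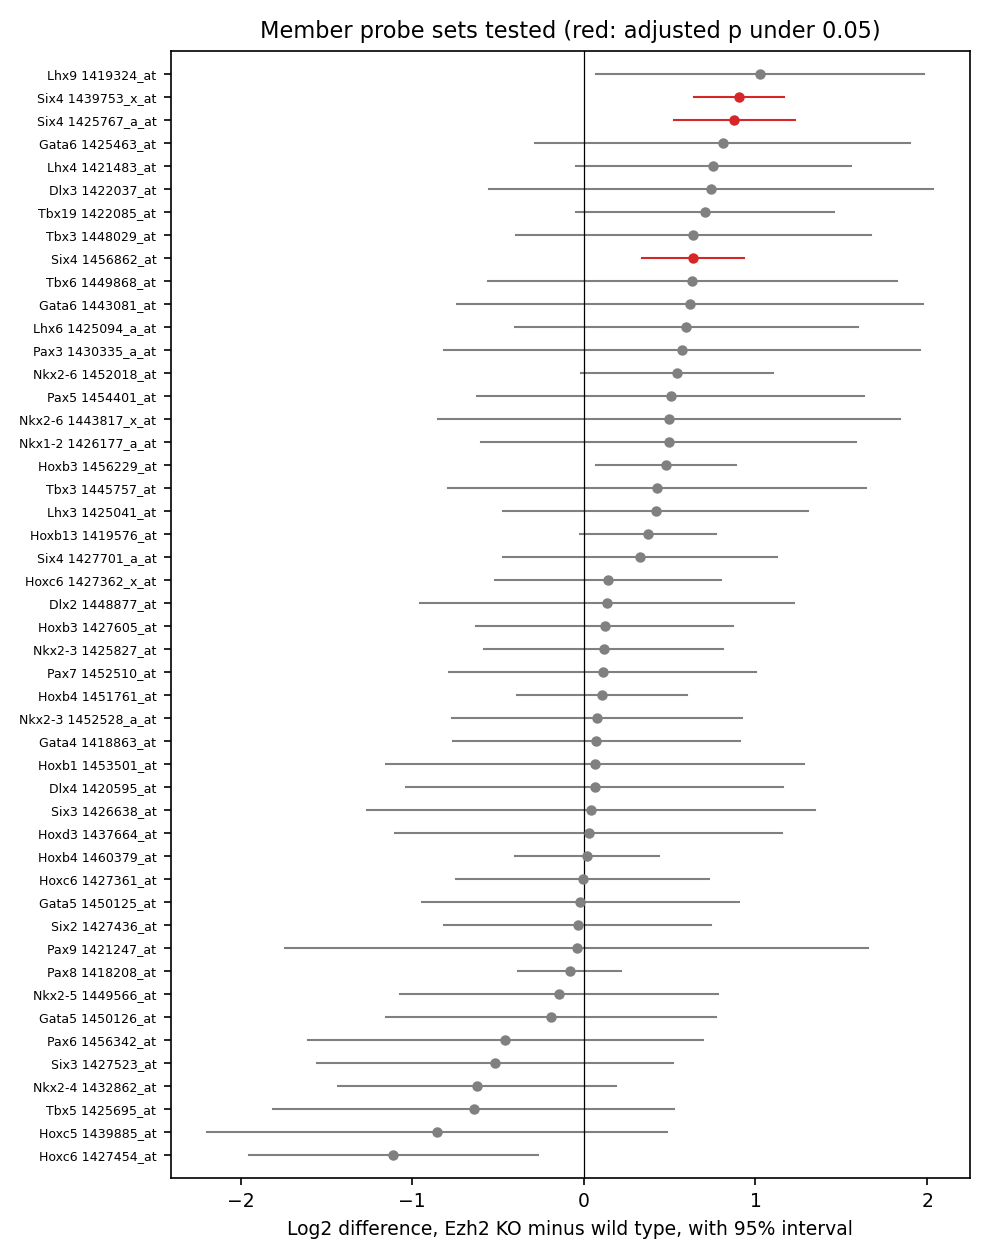
Log2 difference (knockout minus wild type, on log2(intensity + 16)) of the 48 developmental factor probe sets that were tested, with the 95% interval of the limma fit. Red marks an adjusted p under 0.05. The 3 red points are Six4 probe sets at 0.64 to 0.90, and all but 6 of the 48 had an unadjusted p above 0.05.

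Further lists, also chosen with earlier results of these data known, were read beside the members. Their counts stand beside 4.08% of all probe sets tested that rose and 3.91% that fell. Of 12 tested probe sets of blood relatives of these factors 1 rose and 0 fell: Hhex, a homeobox gene of progenitors, went from a mean of 3367 to 4172 (log2 difference 0.31, limma adjusted p = 0.0217). It lost its call without wild-type replicate 1 (adjusted p = 0.0735), wild-type replicate 2 (0.0849) or knockout replicate 1 (0.0745), and with median centring (0.284). Gata2, the blood progenitor member of the Gata family, was at 163 and 98.9 against 224 and 250 (0.82, limma adjusted p = 0.0664). The dimmer Gata2 probe set was at 41.0 and 57.9 against 132 and 102 (1.02, limma adjusted p = 0.0659). Neither passed. Zfpm1, a partner of Gata factors, was at 74.5 and 45.5 against 4.45 and 13.1 on one probe set (-1.61, limma adjusted p = 0.0693), with overlapping groups on its other one. Tgif1, a corepressor that is also in the list of Hox cofactors, was at 182 and 174 against 124 and 87.8 (-0.69, limma adjusted p = 0.101). Of 34 tested probe sets of Polycomb repressive complex 2 genes 3 rose and 0 fell, all of Jarid2, a subunit that helps recruit the complex. Their log2 differences were 0.35, 0.40 and 0.39. Each lost its call with median centring (limma adjusted p = 0.175 to 0.190) and without at least 1 of the arrays.

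Over the 48 tested probe sets the median log2 difference was 0.13, beside 0.03 over all probe sets, and 35 were positive. That median depended on single arrays: with the first wild-type array left out it was 0.35, with the second 0.05, with the first knockout array left out 0.07 and with the second 0.28. It was 0.03 with quantile normalization or median centring. The median absolute difference between the wild-type arrays was 0.476 and between the knockout arrays 0.335. Between the groups, same-numbered arrays gave 0.347 (replicate 1) and 0.4 (replicate 2), and differently numbered arrays 0.504 and 0.587. Over all probe sets the within-group values were 0.167 and 0.161 and the between-group values 0.229 to 0.246. The median SE of the members' log2 differences was 0.412, beside a median absolute difference of 0.442.

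The groups of arrays did not overlap for 17 of the 48 (35.4%), against 50.4% of all probe sets tested. Higher without overlap in the knockout were 16 of the 48 (33.3%), against 27.3% of all tested, and lower 1 of the 48 (2.08%), against 23.2%. Some of the 16 passed the filter only through their knockout arrays, such as Gata6 1425463_at (wild-type mean 15.4) and Lhx9 1419324_at (16.6). Members left untested included ones without overlap in both directions, such as Tbx2 (5.06 to 28.1) and Hoxd3os1 1430263_at (30.6 to 8.50). The part of the filter in these shares was not tested, and they do not describe the whole set. An unadjusted p under 0.05 was found for 6 of the 48, against 21.9% of all. These were 3 probe sets of Six4, and, named after their values were seen, Hoxb3 1456229_at, Lhx9 1419324_at and Hoxc6 1427454_at, the last with a lower value in the knockout.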

How the data were processed

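RNA of 4 samples was hybridised to 1-colour Affymetrix mouse arrays, and the sample titles gave group and replicate. The authors deposited linear intensities, 1 per probe set. The submitters' processing notes name Affymetrix Expression Console. Its version and summary algorithm are not given in the sources used here. In the table each array's mean, trimmed by 2% at each end, was 500, with unequal quantiles, which removes any difference in total RNA per cell.

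Of 45101 probe sets, 64 controls were left out. Gene symbols came from the platform's annotation, and all 84 member genes matched RefSeq (GRCm38.p6) by gene identifier. Values were tested as log2(intensity + 16) by limma (version 3.58.1, R 4.3.3), using lmFit and eBayes, a prior variance trended on intensity and Benjamini-Hochberg adjustment over 25580 probe sets. The probe set, not the gene, was the unit. Total degrees of freedom were 9.42. The fit was tested on simulated data.

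Named were Ezh2, called members, members above 100, the brightest of each of the 9 families, the 3 nearest 100 on each side in each group, and up to 4 called probe sets of each other list, or 2 where none was called. Names outside this rule are examples chosen after their values were seen. The members and lists were chosen with earlier results of these data known. Alternatives were other normalizations, pseudocounts, filters, thresholds and priors, 1 probe set per gene, the replicate number as a block, and leaving out each array. Over all 25580 probe sets tested, same-numbered arrays did not deviate together (r = 0.0386). Probe sets are not independent replicates, and there were only 2 pairs of arrays. Among the 48 members tested, same-numbered arrays of the 2 groups lay closer than differently numbered ones. The cause was not tested. Figures were drawn with Python 3.11.15 and matplotlib 3.10.9.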

Additional observations from a re-analysis of the deposited data

How the results depend on the processing

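The members above 100 numbered 20 and 21 (wild type and knockout) at a limit of 50, and 4 in the wild type at a limit of 200. They ran from 8 to 11 and from 9 to 10 without 1 array. Called members numbered 3 at most settings, 2 without a filter, 1 with 1 probe set per gene, 2 or 3 without 1 array, and 0 with a single prior variance, where limma gave 8 members an unadjusted p under 0.05. With 1 probe set per gene, Six4 could count only once, and its probe set 1456862_at was called (0.637, limma adjusted p = 0.0106). No setting called a lower member, and 1 had an unadjusted p under 0.05 in the main fit. The median of the members ran from 0.0529 to 0.347 without 1 array. Over all probe sets, 2042 were called in the main fit, 1229 without a filter, 0 with a single prior variance (4206 with an unadjusted p under 0.05), and 1058 to 2059 without 1 array, the lowest without wild-type replicate 1. With the replicate block 3469 were called, among them the 3 members. The replicate numbers are not known to pair the arrays.

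Some members that were not called changed sign. Without 1 array Pax8 ran from -0.278 to 0.111, Gata4 from -0.394 to 0.539, Dlx3 from -0.16 to 1.65, Nkx2-3 from -0.291 to 0.522, Hoxc6 1427361_at from -0.389 to 0.374, Hoxc6 1427362_x_at from -0.019 to 0.3 and Hoxb4 1460379_at from -0.0739 to 0.108. With quantile normalization and median centring Gata4 had -0.0298 and -0.0247, and Hoxb4 1460379_at -0.0647 and -0.0799. Hoxc6 1427361_at had 0.00303 with a pseudocount of 1. The cause was not tested. The Six4 call of 1456862_at was also lost without a filter (0.637, limma adjusted p = 0.0589). With 2 arrays a group and most members near background, a missing call does not show that a gene did not differ.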
